A study of Homo sapiens with 24 samples.

Results

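Small nucleolar RNA host genes are noncoding genes whose introns carry small nucleolar RNAs (snoRNAs). The 10 genes ZFAS1, GAS5, SNHG1, SNHG3, SNHG5, SNHG7, SNHG8, SNHG12, SNHG15 and SNHG16 were followed through the peak lists of 3 subunits of the chromatin remodelling complex SWI/SNF. Peaks were taken as theirs where the deposited annotation named the gene as nearest transcription start site (TSS), which gave 13 of 51504 BRG1 peaks, 12 of 22157 BRM peaks and 7 of 6489 SNF5 peaks. Each complex is driven by 1 of 2 ATPases, BRG1 or BRM, while SNF5 belongs to its core. The cells were RWPE1, an established benign human prostate epithelial line, made to express SCHLAP1, a prostate cancer lncRNA, from a lentivirus and kept in 2.5 ug/mL blasticidin. BRG1, BRM and SNF5 were each precipitated from MNase-cut chromatin of these SCHLAP1 cells in 2 replicates, and 1 list is given for each subunit. No list of these subunits in LACZ control cells was used here, so nothing below compares SCHLAP1 with control cells. The genes were chosen by the number, type and width of their named peaks and by the SNF5 peaks inside them, so these values are descriptions and carry no test. With positions alone in the lists and no read counts, depth is unknown and replicate spread cannot be given. A missing peak means that none was called.

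SnoRNAs guide the chemical modification of ribosomal and other small RNAs. C/D box snoRNAs direct ribose methylation, and H/ACA box snoRNAs direct pseudouridine formation. In vertebrates most are cut from introns of a host transcript, and many hosts begin with a run of pyrimidines, as messages of ribosomal proteins do, and are transcribed strongly in growing cells. The spliced RNA of several hosts is short-lived, and GAS5 was named for its accumulation when growth arrests. Of the cell type markers, BRG1 peaks named 4 of 5 markers of basal prostate epithelium (KRT5, KRT14, KRT15 and TP63, with ITGA6 named by BRM) and 4 of 4 general epithelial markers (CDH1, EPCAM, KRT8 and KRT18). Of the markers of other cell types, BRG1 peaks named PTPRC of 3 for blood, RBFOX3 of 2 for neurons, CDH5 of 2 for endothelium and none of 2 for liver. BRM named RBFOX3 among these, and SNF5 named none. Since BRG1 peaks named 63.7% of all protein-coding genes, these few names say little about the cell type, and a name does not show that a gene is expressed.

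The promoter windows of 3 genes are shown because they belong to the gene with the widest named BRG1 peak (ZFAS1), the gene whose widest named BRG1 peak was the narrowest (SNHG5), and the gene with the most named SNF5 peaks (SNHG7). Each RefSeq window (GRCh38.p14) holds 250 bases before the start and 50 from the start on, 5′ to 3′. Capitals mark matches on either strand to 7 motifs: the E-box CACGTG that MYC and related factors read, the TATA motif TATAAA, the NFY motif CCAAT, the GC box core GGGCGG, the ETS motif CCGGAAG, the AP-1 motif TGANTCA, and the CREB motif TGACGT.
ZFAS1, chr20:49278392-49278691, plus strand: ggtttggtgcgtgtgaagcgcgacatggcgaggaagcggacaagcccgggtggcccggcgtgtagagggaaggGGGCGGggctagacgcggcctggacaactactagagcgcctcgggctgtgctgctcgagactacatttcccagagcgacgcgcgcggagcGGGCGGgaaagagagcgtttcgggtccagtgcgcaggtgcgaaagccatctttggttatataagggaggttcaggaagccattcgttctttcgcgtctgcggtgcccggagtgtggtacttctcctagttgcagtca
SNHG5, chr6:85678684-85678983, minus strand: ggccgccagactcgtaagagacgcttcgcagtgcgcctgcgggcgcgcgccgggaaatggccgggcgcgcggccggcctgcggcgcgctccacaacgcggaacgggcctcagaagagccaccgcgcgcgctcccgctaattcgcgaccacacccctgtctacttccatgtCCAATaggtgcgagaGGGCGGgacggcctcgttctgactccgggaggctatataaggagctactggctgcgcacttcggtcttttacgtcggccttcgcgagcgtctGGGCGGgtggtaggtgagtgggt
SNHG7, chr9:136728135-136728434, minus strand: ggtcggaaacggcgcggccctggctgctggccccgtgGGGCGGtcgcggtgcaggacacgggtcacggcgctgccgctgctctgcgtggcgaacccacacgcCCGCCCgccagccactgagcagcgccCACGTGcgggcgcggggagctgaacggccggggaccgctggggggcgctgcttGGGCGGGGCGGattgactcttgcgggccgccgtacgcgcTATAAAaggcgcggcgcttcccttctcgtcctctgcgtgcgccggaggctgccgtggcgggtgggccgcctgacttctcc

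Peaks of both ATPases overlapped each window, and SNF5 overlapped that of ZFAS1 with 2 peaks and those of SNHG5 and SNHG7 with 1 each. Of the 9 members in the RefSeq promoter table, 7 held GGGCGG, against 45.0% of all 34961 windows. CACGTG stood in SNHG7 alone (7.27% of all windows), and CCAAT stood in SNHG5 and GAS5 (34.6%). The ETS, AP-1 and CREB motifs were in none of the 9, against 10.3%, 7.68% and 7.97% of all windows. CGCG, a CpG-rich motif not capitalised here, was in 8 of 9 and in 49.9% of all windows. TATAAA was in 2 of 9, SNHG7 and SNHG1, and in 11.5%. It lay 30 bases before the start in SNHG7, and after the start, at position 39, in SNHG1. The motifs may share letters where they touch, and a match is a description of the letters, not a bound site. SNHG15 has no entry in the table.

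The bases from 20 before the start to 20 from the start on are shown for the same 9 genes because of the pyrimidine run that host transcripts are known for. Capitals mark the longest run of C and T anywhere in these bases, so it need not begin the transcript. Where runs are equally long, as in SNHG1, the one nearest to the start is marked.
ZFAS1, chr20:49278622-49278661, plus strand: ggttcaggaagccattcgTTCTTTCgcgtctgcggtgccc
GAS5, chr1:173869026-173869065, minus strand: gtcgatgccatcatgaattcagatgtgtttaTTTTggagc
SNHG1, chr11:62855866-62855905, minus strand: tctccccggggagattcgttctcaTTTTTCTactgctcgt
SNHG3, chr1:28505923-28505962, plus strand: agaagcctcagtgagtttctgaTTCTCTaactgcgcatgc
SNHG5, chr6:85678714-85678753, minus strand: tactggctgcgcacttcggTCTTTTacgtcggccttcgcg
SNHG7, chr9:136728165-136728204, minus strand: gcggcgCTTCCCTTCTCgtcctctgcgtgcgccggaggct
SNHG8, chr4:118278742-118278781, plus strand: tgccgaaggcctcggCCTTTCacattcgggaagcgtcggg
SNHG12, chr1:28581854-28581893, minus strand: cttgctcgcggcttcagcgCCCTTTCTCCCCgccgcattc
SNHG16, chr17:76557744-76557783, plus strand: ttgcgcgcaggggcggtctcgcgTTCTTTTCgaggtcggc

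The run was longer than the median of all windows (5 bases) in 8 of 9 members, with a median of 7 bases over the members. It was longest in SNHG12 (12 bases) and SNHG7 (11 bases) and shortest in GAS5 (4 bases). The marked run crossed the start in ZFAS1, SNHG5, SNHG8 and SNHG12. In SNHG7 it lay wholly before the start, and in GAS5, SNHG1, SNHG3 and SNHG16 wholly after it. Runs of at least 8 bases were found in 3 of 9 members and in 17.5% of all windows. The GAS5 window may not show the start that the deposited annotation used. The deposited distance from the middle of the GAS5 BRG1 peak to the TSS was 22 bp, and the nearest TSS this allows lies 1008 bp from the RefSeq start. The same gap was 534 bp for ZFAS1 and 213 bp for SNHG12.

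By name, BRG1 peaks gave 7 of the 10 genes as nearest TSS, BRM peaks 9 and SNF5 peaks 6. The background was 7.81% of the 18167 other lncRNA genes for BRG1, 4.02% for BRM and 1.23% for SNF5. Many RefSeq lncRNA genes are called LOC and a number, names that no peak carried. Without those, 24.3%, 12.5% and 3.83% of 5851 lncRNA genes were named. Of 19974 protein-coding genes, 63.7%, 49.7% and 19.7% were named. All 3 lists named ZFAS1, GAS5, SNHG5, SNHG12 and SNHG15. No BRG1 peak named SNHG1, SNHG3 or SNHG7, no BRM peak named SNHG16, and no SNF5 peak named SNHG1, SNHG3, SNHG8 or SNHG16.

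By position, BRG1 and BRM peaks lay over the start of every one of the 10 genes. This includes SNHG1, SNHG3 and SNHG7, which no BRG1 peak named. The start of SNHG15 was set as the span end nearest to its named promoter peaks. Its place in this count was largely fixed by that choice. The SNHG12 start used, 28581873, lies inside its span, which ends at 28582983 on the minus strand. The BRG1 and BRM peaks there end at 28582408 and 28582360, short of that span end. The GAS5 BRM peak passed the start by only 4 bp. Other genes had their RefSeq start under a BRG1 peak in 21.2% of 11374 lncRNA genes and 53.7% of 15812 protein-coding genes, and under a BRM peak in 13.7% and 41.9%. SNF5 peaks covered the start of ZFAS1, SNHG5 and SNHG7, with a background of 2.36% of lncRNA and 8.99% of protein-coding genes. Within 1 kb of the gene span, BRG1 and BRM peaks lay at all 10 genes, against 33.4% and 20.5% of other lncRNA genes and 70.3% and 57.2% of protein-coding genes. An SNF5 peak lay there at 8 of the 10 genes (7.12% of other lncRNA genes and 24.3% of protein-coding genes). SNHG3 and SNHG8 were the genes without it.

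Many peaks at the host genes were named for the snoRNA genes inside them. Of 27 BRG1 peaks within 1 kb of the 10 gene spans, 10 were named for the host, 13 for a snoRNA gene inside it and 4 for another gene. Of 23 BRM peaks there, 12 were named for the host, 6 for a snoRNA gene inside and 5 for another gene. Of 14 SNF5 peaks, 7 were named for the host, 4 for a snoRNA gene and 3 for another gene. A snoRNA gene was the name given by 0.412% of all BRG1 peaks, 0.217% of all BRM peaks and 0.200% of all SNF5 peaks. Promoter was the label of 22 of these 27 BRG1 peaks, 18 of 23 BRM peaks and 13 of 14 SNF5 peaks, against 37.3%, 62.8% and 81.3% in the whole lists. Of the 13 BRG1 peaks named for a snoRNA, 9 carried the promoter label without lying over the start of the host. These are peaks in or near the body of a host gene and close to a snoRNA gene. Of the BRG1 peaks named for a host, 3 lay beyond 1 kb of it, the farthest upstream of SNHG8 at a deposited distance of 12997 bp.

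**Figure D1:**
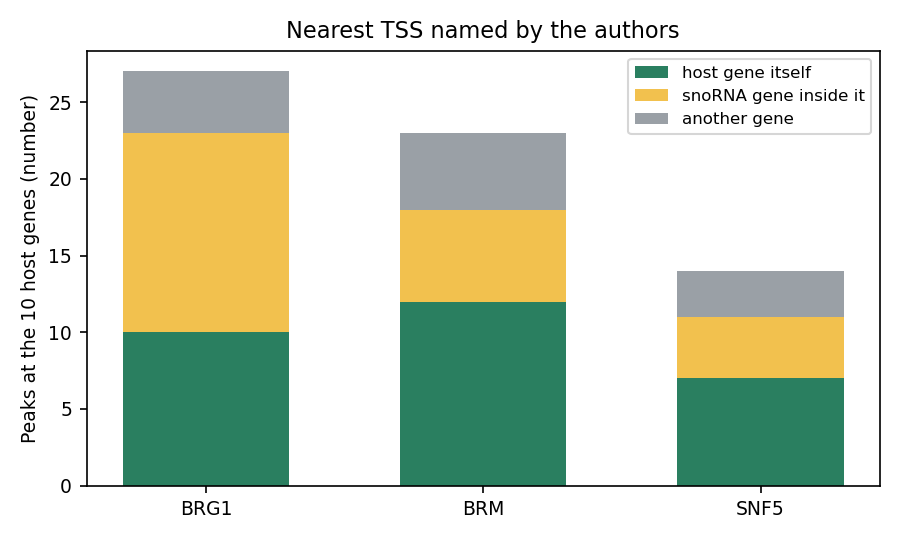
Number of peaks within 1 kb of the 10 host genes in each list (bars), split by the nearest TSS the authors named. The host itself is the name of 10 of the 27 BRG1 peaks, 12 of the 23 for BRM and 7 of the 14 for SNF5.

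ZFAS1, a cancer-associated RNA gene that hosts the SNORD12 family, had the widest BRG1 peak and the most SNF5 peaks of the set, in its longest gene. The gene spans chromosome 20 from 49278178 to 49289260 (hg38). Its BRG1 peak from 49275288 to 49283653 was 8366 bp wide, rank 4 of the whole BRG1 list, and ran from -3354 to 5011 bp relative to the start. Inside it lay 2 BRM peaks of 2637 and 3599 bp and 6 SNF5 peaks of 151 to 686 bp. The deposited names split them: the BRM peak over the start went to ZNFX1, the protein-coding neighbour whose span ends 120 bp before that of ZFAS1, and the other BRM peak went to SNORD12. Of the SNF5 peaks, 1 was named for ZFAS1, 1 for ZNFX1 and 4 for snoRNA genes. The BRM and SNF5 peaks named for ZNFX1 lay 52 and 36 bp from its TSS by the deposited distance. The wide BRG1 peak also covers the end of the ZNFX1 span (49245900 to 49278057). The peaks there cannot be told apart by gene. The SNF5 peaks from 49278494 to 49279179 and from 49280194 to 49280344 overlapped SNORD12C and SNORD12B. BRG1 peaks continued at the far end of the gene, with widths of 412 and 2232 bp.

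GAS5, which hosts 11 snoRNA genes over 5145 bp of chromosome 1 (173863901 to 173869045), had peaks of all lists stacked at its 5′ part. The BRG1 peak of 2390 bp (173866821 to 173869210) held a BRM peak of 2051 bp and an SNF5 peak of 292 bp (173867672 to 173867963). The SNF5 peak overlapped SNORD74 and lay 0 bp from the TSS by the deposited distance. Another BRG1 peak of 1642 bp (173864538 to 173866179) lay in the gene body over SNORD80, SNORD79, SNORD78 and SNORD44, with no BRM or SNF5 peak in it. ZBTB37, which encodes a zinc finger protein, starts 665 bp downstream of the RefSeq start of GAS5 on the other strand, so the peaks there cannot be told apart by gene.

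SNHG7 was the other gene with a peak above 3000 bp. Its span on chromosome 9 (136724594 to 136728184) hosts SNORA17A and SNORA17B, both H/ACA snoRNAs. A BRG1 peak of 3985 bp (136725395 to 136729379) covered both snoRNA genes and the start, and was named for SNORA17A. It met 3 BRM peaks, of 410, 1216 and 1501 bp, and 2 SNF5 peaks, of 168 and 708 bp. RefSeq's protein-coding LOC124900276 has the same start on the same strand, so peaks there cannot be told apart by gene. The 708 bp SNF5 peak ranked 81 of 6489 by width. Both start peaks of 3000 bp or more, at ZFAS1 and SNHG7, met SNF5, as did 68.7% of 665 such peaks in the whole list.

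SNHG1 and SNHG3 start beside protein-coding genes, for which the BRG1 peaks over their starts were named. The peaks there cannot be told apart by gene. SNHG1 (chromosome 11, 62851978 to 62855885), the host of U22 and relatives, starts 224 bp from SLC3A2, the heavy chain of amino acid transporters, on the opposite strand. The peaks at these starts were a BRG1 peak of 2543 bp, a BRM peak of 1217 bp and an SNF5 peak of 435 bp. BRG1 and SNF5 were named for SLC3A2 and BRM for SNHG1. SNHG3 (chromosome 1, 28505943 to 28510892), the host of the U17 snoRNAs SNORA73A and SNORA73B that act in ribosomal RNA processing, starts 100 bp before RCC1, the exchange factor of the GTPase RAN, on the same strand. The rest of SNHG3 lies within the span of RCC1 (28506043 to 28538989). SNHG3 had 4 BRG1 peaks of 828 to 2204 bp and 4 BRM peaks of 310 to 989 bp. Its start peaks and the widest peak of each ATPase were named for RCC1. SNORA73A met peaks of both ATPases and SNORA73B a BRG1 peak, and no SNF5 peak lay within 1 kb. SNHG3 had the narrowest BRG1 start peak of the set (1069 bp).

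SNHG5, SNHG12, SNHG15 and SNHG16 each had a BRG1 start peak that held a single SNF5 peak of 151 to 282 bp. SNHG5 (chromosome 6, 85677007 to 85678733), the host of the U50 snoRNAs, had BRG1, BRM and SNF5 peaks of 1416, 1177 and 203 bp. The SNF5 peak there ran from the RefSeq start to 202 bp downstream. Further BRG1 peaks of 921 and 666 bp at SNHG5 were named for SNORD50B. In SNHG12 (chromosome 1, 28578538 to 28582983), the host of SNORA16A, SNORA44, SNORA61 and SNORD99, the widths were 1762, 1369 and 282 bp, and no further peak lay within 1 kb. In SNHG15 (chromosome 7, 44983023 to 44986696), the host of SNORA9, they were 1633, 653 and 151 bp, with the SNF5 peak as narrow as any in its list. A further BRG1 peak of 331 bp and a further BRM peak of 443 bp at SNHG15 were named for SNORA9. SNHG16 (chromosome 17, 76557764 to 76565348), the host of the SNORD1 family, had widths of 2098, 1379 and 161 bp. Its BRM and SNF5 peaks were named for AC015802.4, and 3 further BRG1 peaks of 405 to 1137 bp in the gene body were named for SNORD1C, SNORD1B and SNORD1A. The body peaks of SNHG16 met no BRM or SNF5 peak.

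SNHG8, the host of SNORA24 (chromosome 4, 118278762 to 118279823), was the shortest gene at 1062 bp. Its BRG1 start peak was 1457 bp wide and held 2 BRM peaks of 386 and 401 bp, without SNF5. In the whole list, BRG1 promoter peaks of 1400 to 2600 bp met SNF5 in 45.7% of 4102 cases. Of the 7 host genes whose start peak fell in this width, 6 met it.

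**Figure D2:**
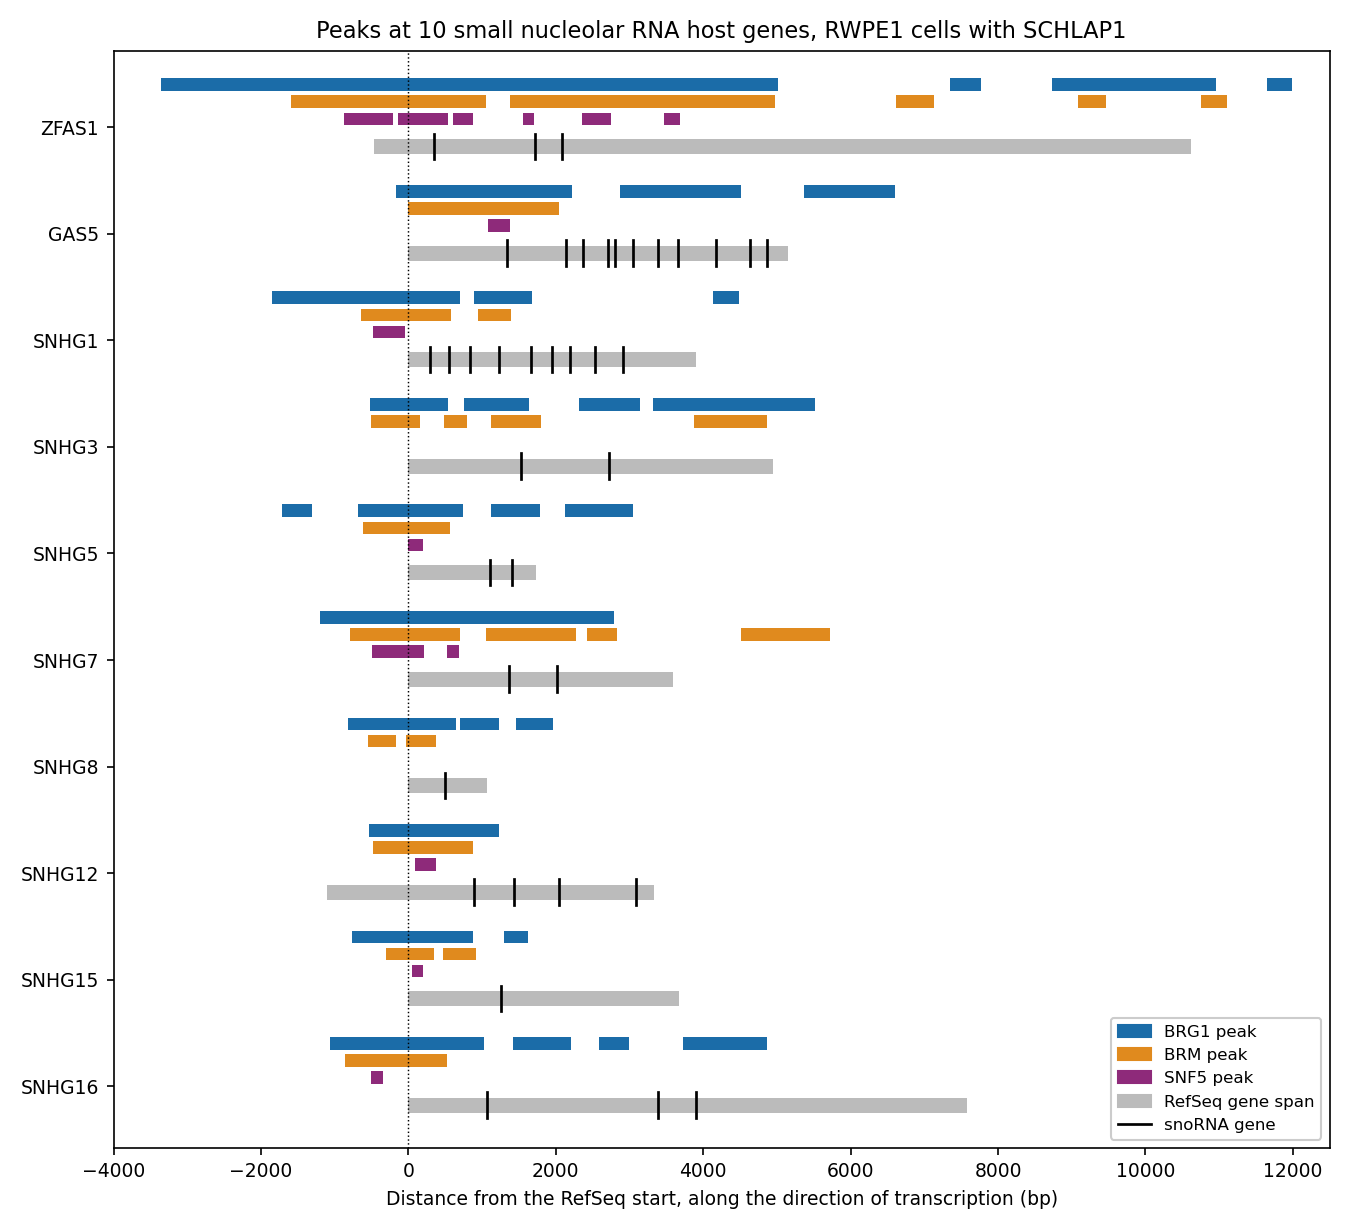
Map of the 10 host genes, each aligned at its RefSeq start (for SNHG15, the end of the span nearest its named promoter peaks) and drawn along its direction of transcription (x axis, bp). Coloured bars are peaks, grey bars gene spans and black ticks snoRNA genes. BRG1 and BRM peaks cross the start in all 10 genes, and BRG1 peaks recur over the snoRNA genes. A BRG1 peak named for SNHG8 lies off the map to the left.

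The start peaks were wide for their lists, with the start of SNHG15 set from its own peaks. BRG1 start peaks ranged from 1069 to 8366 bp with a median of 1930 bp, and 9 of 10 were wider than the median of the 9355 BRG1 peaks over any RefSeq start (1243 bp). The exception was SNHG3. BRM start peaks ranged from 401 to 2637 bp with a median of 1293 bp, and 7 of 10 exceeded the median of 811 bp over 7032 peaks. SNHG3, SNHG8 and SNHG15 did not. BRG1 reached farther downstream than upstream in 7 of 10 genes, and BRM in 4 of 10. Over the starts of other lncRNA genes the shares were 44.4% for BRG1 and 41.9% for BRM, and over those of protein-coding genes 64.6% and 63.0%.

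**Figure D3:**
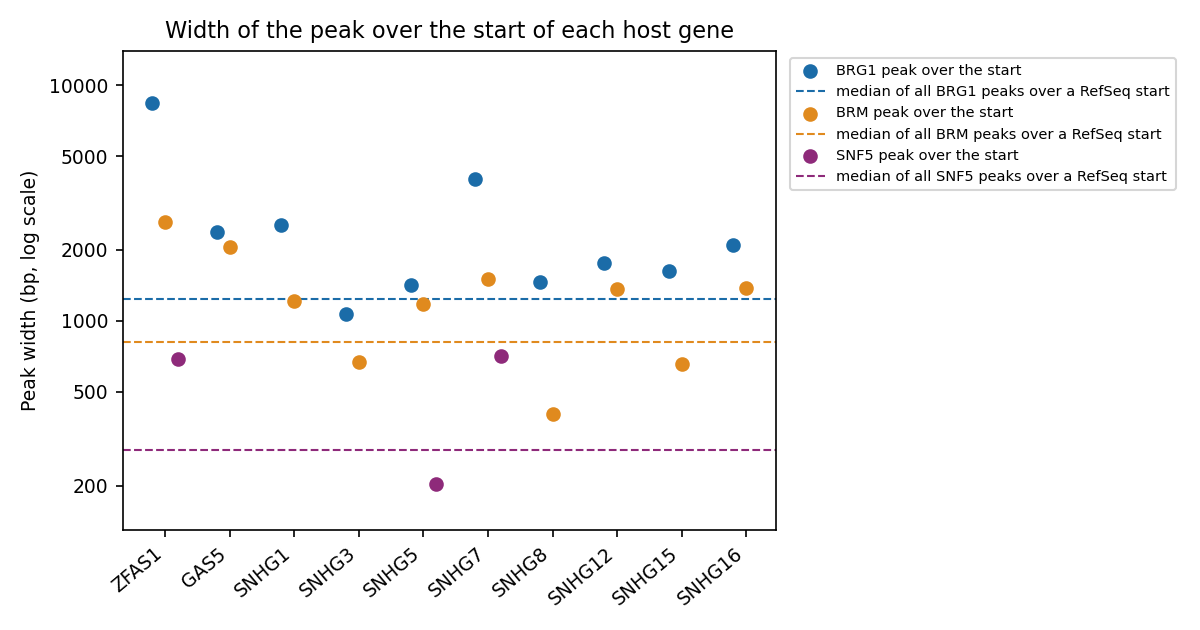
Width of the peak over the RefSeq start of each host gene (points, bp, log scale). For SNHG15 the start is the end of the span nearest its named promoter peaks. Dashed lines are medians over all peaks of the same list that cover a RefSeq start (1243 bp for BRG1, 811 bp for BRM, 282 bp for SNF5). An absent SNF5 point means that no SNF5 peak covers that start.

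The peaks were nested. Each of the 10 BRG1 start peaks met a BRM peak, and 8 held an SNF5 peak. Of 1298 other lncRNA genes of 1062 to 11083 bp with BRG1 over the start, 74.2% had BRM on the span. Of 1789 such protein-coding genes, 85.9% did. Those shares count the whole span, not the start peak alone. All 14 SNF5 peaks at these genes lay wholly inside a BRG1 peak. BRM met BRG1 in 22 of 23 peaks there, 16 of them wholly inside. The exception was a BRM peak of 506 bp in an intron of ZFAS1. The shares of all SNF5 and BRM peaks that lie in a BRG1 peak were not worked out. The nesting is therefore not shown to be particular to these genes. In the whole lists, 4934 BRG1 peaks met a peak of the SNF5 list, which holds 6489 peaks. For the 7 genes that a BRG1 peak named, the widest such peak met both other lists in 6, against 21.2% of the 16623 genes named by BRG1. SNHG8 was the gene without SNF5. Over all BRG1 peaks, 9.58% met SNF5 and 9.22% met both. Those shares pool peaks of any width and type, while the widest named peaks of the 7 genes were promoter peaks of at least 1416 bp. BRG1 promoter peaks of 1400 to 2600 bp met SNF5 in 45.7% of cases, and BRG1 peaks of 3000 bp or more in 68.7%. The middle of the SNF5 peak lay downstream of the RefSeq start in 10 of 14 cases and within 500 bp of it in 7. ZFAS1 gave 5 of these 10 downstream peaks, and the other genes 5 of 8. Both counts use RefSeq starts. By the deposited distances, the TSS nearest to the ZFAS1 BRG1 start peak lay at least 534 bp from the RefSeq start, and that of GAS5 farther. A gene may have several deposited TSSs, since those of 2 SNHG7 BRM peaks lay at least 2 and 1629 bp from its start. The distances do not show whether the deposited annotation also holds the RefSeq start. The middle of the SNF5 peak lay 101 bp downstream in SNHG5, 121 bp in SNHG15 (its start set from its own peaks) and 230 bp in SNHG12. It lay upstream for the single peaks of SNHG1 and SNHG16 and for 1 peak each of ZFAS1 and SNHG7.

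BRG1 peaks covered much of these short genes and their snoRNA genes. They lay over a median of 72.7% of the gene span, from 32.7% in SNHG15 to 94.6% in SNHG8, and over more than 50% in 6 of 10 genes. BRM covered a median of 33.7%, from 6.84% in SNHG16 to 65.0% in SNHG7, and SNF5 a median of 4.89%, at most 17.9% in ZFAS1. Other genes of the same range of lengths (1062 to 11083 bp) with BRG1 over the start had medians of 20.1% for BRG1 and 8.08% for BRM in 1298 lncRNA genes, and 17.6% and 9.66% in 1789 protein-coding genes. The lengths within this range were not matched.

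**Figure D4:**
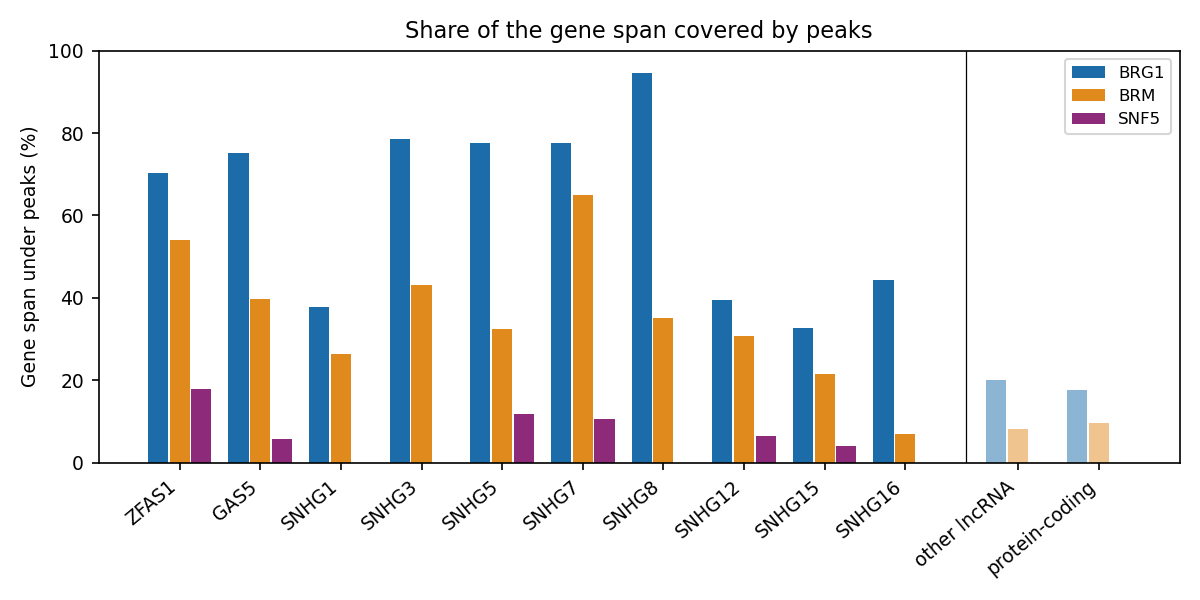
Percent of each gene span under peaks of the 3 lists (bars). The pale bars on the right are medians over other lncRNA and protein-coding genes of 1062 to 11083 bp with a BRG1 peak over a start, where BRG1 covers 20.1% and 17.6%. The SNF5 medians there are 0.

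The 10 spans hold 38 RefSeq snoRNA genes. BRG1 peaks met 24 of them, BRM peaks 11 and SNF5 peaks 3. Of 1158 snoRNA genes elsewhere, 4.84% met BRG1, 1.99% BRM and 0.604% SNF5. Of the 400 among these inside genes with a BRG1 peak over a start, 31 met BRG1, 12 BRM and 3 SNF5. Those genes were of any length. Neither their length nor the distance from snoRNA gene to start was matched to the 10 hosts. Every host had at least 1 snoRNA gene under BRG1, 6 had at least 1 under BRM, and ZFAS1 had 2 and GAS5 had 1 under SNF5. BRG1 met 16 of 27 C/D box and 7 of 10 H/ACA box genes, against 10.3% of 330 and 11.0% of 172 such genes elsewhere. The other genes among the 1158 were in neither class by symbol, and they lower the share of 4.84%. Of the 6 snoRNA genes centred within 1000 bp of the host start, BRG1 met 5, and of the 32 farther ones 19, while BRM met 4 and 7. In SNHG1, BRG1 met SNORD25, SNORD26, SNORD28 and LOC124900306 near the start, and not SNORD27 or the 4 snoRNA genes farther on.

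Other genes of snoRNA production were named as follows. Of 22 further host RNA genes, BRG1 named 15 (68.2%), BRM 15 (68.2%) and SNF5 9 (40.9%), against 24.3%, 12.5% and 3.83% of lncRNA genes not called LOC and a number. The median of their widest BRG1 peaks was 969 bp, against 909 bp over all named lncRNA genes other than the 10. SNHG26 (2651 bp), SNHG21 (1363 bp), SNHG32 (1316 bp) and SNHG28 (1248 bp) led by BRG1 width. SNF5 named SNHG4, SNHG6, SNHG10, SNHG11, SNHG17, SNHG19, SNHG26, SNHG29 and EPB41L4A-AS1. SNHG14, which lies in the imprinted region of Prader-Willi syndrome and is best known from neurons, and SNHG18 and SNHG22 were named by no peak. The 7 of the 10 genes that BRG1 named had a median of 1762 bp.

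Of 21 protein-coding snoRNA hosts, BRG1 named 20, BRM 21 and SNF5 11, against 63.7%, 49.7% and 19.7% of all protein-coding genes. RACK1, a ribosome-bound scaffold protein, had a BRG1 peak of 2672 bp, EIF4A2, a translation initiation helicase, one of 2251 bp, and TPT1 one of 2222 bp. RCC1 followed with 2204 bp, a peak that lies over the end of SNHG3. Among them, SNF5 named HSPA9, EIF4A1 and EEF2 by 3 peaks each, NCL, HSPA8, EIF4A2 and TPT1 by 2 each, and NOP56, RACK1 and RPL13A by 1 each. RPL10 was named by BRM alone.

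Of 16 genes of snoRNP proteins and their assembly factors, BRG1 named 15 (93.8%), BRM 12 (75.0%) and SNF5 8, against 63.7%, 49.7% and 19.7% of all protein-coding genes. NOLC1, a nucleolar chaperone of snoRNPs, had the widest BRG1 peak (1786 bp), followed by NUFIP1 (1662 bp), NAF1 (1633 bp) and GAR1 (1440 bp). The widest BRG1 peak was 1015 bp at FBL, the C/D box methyltransferase, and 571 bp at DKC1, the pseudouridine synthase, both chosen after their values were seen and neither named by SNF5. SNF5 named NOP56 (also a host), NOP58, NHP2, NOP10, NAF1, RUVBL1, NUFIP1 and NOLC1. SNU13, a protein of the C/D box particle, was named by no peak.

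**Figure D5:**
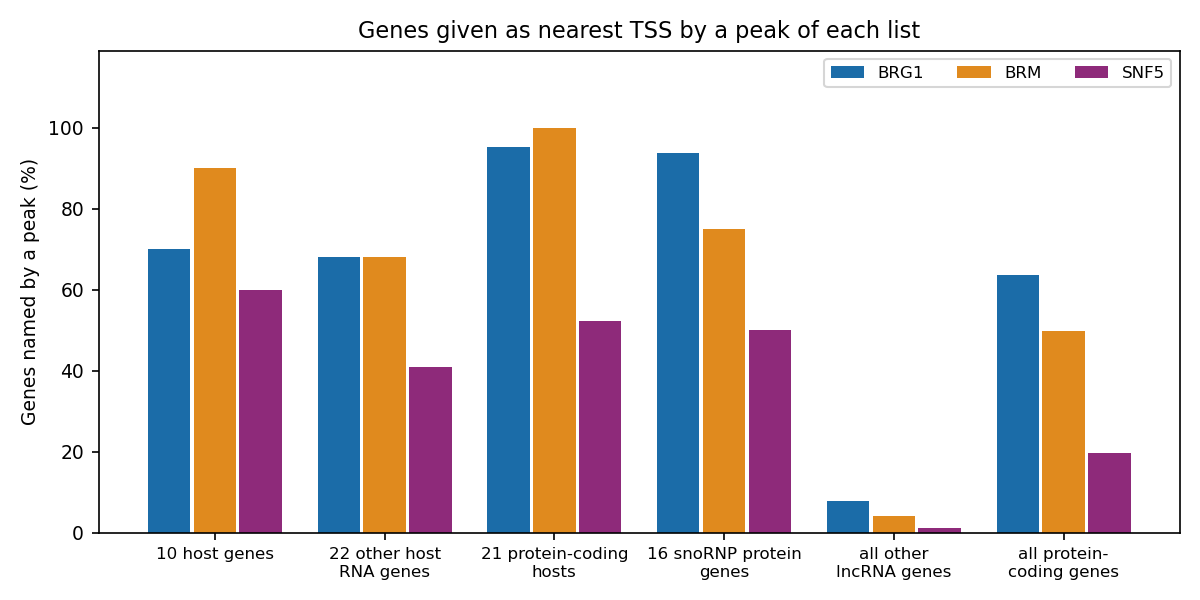
Percent of genes named as nearest TSS by a peak of each list (bars) for the 10 host genes, 3 related gene lists, all other lncRNA genes and all protein-coding genes. SNF5 named 6 of the 10 host genes and 9 of the 22 other host RNA genes, against 1.23% of other lncRNA genes. Without the lncRNA genes called LOC and a number, which no peak named, the share is 3.83%.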

How the data were processed

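Chromatin immunoprecipitation with sequencing used RWPE1 cells fixed for 30 min with 0.3% formaldehyde, per the labels' protocols. The series holds 24 samples in 12 groups of 2, and 3 peak lists were analysed. Histone-mark and input samples were left out. The deposited lists give each peak's position in hg38, width, type, nearest TSS and distance, and no score. The submitters' processing notes list Bowtie2, SAMtools, MACS2 and deepTools 2.5.2, with no role for any. What cut-off was used, and whether replicates were pooled, is not given in the sources used here.

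Gene names given by the authors were looked up by symbol or synonym among the RefSeq (GRCh38.p14) genes of that chromosome, with a match for 81.4% (BRG1), 86.9% (BRM) and 90.4% (SNF5) of peaks. Starts and sequences come from RefSeq's promoter table. For SNHG15, which is not in it, the end of the span nearest to the named promoter peaks served as start. Overlap means at least 1 bp. Motifs were searched in windows of 300 bases. The members and lists were chosen with earlier results of these data known. All members are named. Of the other lists, the text names genes with SNF5 peaks, the 4 widest by BRG1, and up to 3 without a peak, except 1 gene that is not reported here. The overlap routine was tested on simulated data. Python 3.11.15, numpy 2.4.6, pandas 2.3.3 and matplotlib 3.10.9 were used.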

Additional observations from a re-analysis of the deposited data

How the results depend on the processing

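Under the alternatives tried, 23 values stayed within 1.5 times the value reported and 4 did not. Some of the 23 had no room to move. The SNF5 list cut to its own size is the same list. Counts of 7 genes for BRG1 and 9 for BRM could fall out of this range but not rise out of it, with 10 genes in all. With as many of the widest peaks as the SNF5 list holds, BRM named 5 of the 10 genes, against 9 with the full list. Counting only SNF5 peaks that cover the RefSeq start left 3 genes, against 6 by name. A demand for reciprocal overlap of 50% left 0 genes whose widest BRG1 peak met both other lists, against 6 with 1 bp. That 0 was fixed by the widths. These BRG1 peaks were at least 1416 bp wide, and no SNF5 peak inside them was wider than 686 bp. With peaks named for the host alone, the median share of the span under BRG1 fell to 31.7%, against 72.7% with all peaks. Gene spans widened by 1 kb gave 10 genes for BRG1, 10 for BRM and 8 for SNF5. No paired analysis was possible because each subunit has 1 list and no value per replicate. For the same reason no replicate could be left out. Depth is unknown, so the number and width of peaks are not compared between subunits as amounts of protein.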

Other observations

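Several host promoters carried a TATA-like element upstream of the start. TATATAA, searched on both strands and chosen after the sequences were seen, was in the windows of ZFAS1, SNHG5 and SNHG12, at 30 to 32 bases before the start, and in 2.58% of all 34961 windows. SNHG7 had TATAAA at 30 bases before the start. The GC content of the 9 windows had a median of 62.0%, against 58.7% over all windows, from 37.7% in GAS5 to 75.3% in SNHG7.

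SNHG22 and SNHG31 were named by no peak, yet a BRG1 peak covered their RefSeq start.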
